A study of Mus musculus with 6 samples.

Results

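The helper and regulatory lineage transcription factors are a set of 9 genes, Tbx21, Eomes, Gata3, Maf, Rora, Foxp3, Ikzf2, Bcl6 and Prdm1. They were taken by their symbols from the 23282 genes listed for each library, and all 9 were among the 11279 genes tested. Their mRNA was compared between 3 samples of WT and 3 samples of AMPK KO CD4 T cells, which asks whether loss of AMPK in T cells is accompanied by a shift in the factors that set helper and regulatory fates. WT mice were Prkaa1fl/fl CD4Cre-neg, AMPK KO mice carried the same floxed alleles with CD4Cre, and both were C57BL/6. Mice were female and 6 to 8 weeks old by default, per the methods. Cells from spleen and lymph nodes of either genotype were rested for 1 h in RPMI 1640 and then received anti-CD3 and anti-CD28, each at 2 µg/mL. The duration of this stimulation is 24 h in the labels but 6 h in the methods. CD4Cre is driven by Cd4 regulatory sequences, which are active in developing T cells before the CD4 and CD8 lineages part, so CD8 T cells of these mice lose Prkaa1 too. Libraries were 3′ QuantSeq libraries made from 500 ng of total RNA.

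After activation, a naive CD4 T cell takes up one of several fates, each with a transcription factor that is needed for it. T-bet, the product of Tbx21, directs the Th1 program and GATA3 the Th2 program, RORα supports Th17 cells, FOXP3 defines regulatory T (Treg) cells, and BCL6 directs follicular helper T (Tfh) cells. Several of these factors repress one another, the best-known pairs being T-bet with GATA3 and BCL6 with Blimp-1, the product of Prdm1.

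None of the 9 factors passed the test. The count was 0 of 9 at an adjusted p of 0.05 (limma, two-sided, Benjamini-Hochberg over all genes tested), where 5.65% of all genes tested passed, 2.54% higher and 3.10% lower in AMPK KO. With limma voom on the recovered reads it was again 0 of 9. At an unadjusted p of 0.05 the count was 3 of 9, namely Eomes, Maf and Rora, beside 2405 of the 11279 genes tested. The mean was higher in AMPK KO for 5 factors and lower for 4, with a median difference of 0.03 on the log2 scale beside 0.02 over all genes tested. The groups were fully separate for 4 of the 9, with AMPK KO higher for Eomes, Maf and Prdm1 and lower for Rora. Over all genes tested, the groups were separate for 25.6%, with AMPK KO higher for 11.6% and lower for 14.0%.

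Some properties of the libraries bear on these values. Reads on genes numbered 9575307 to 10168079 in WT and 10515306 to 11185507 in AMPK KO. Rn45s, the ribosomal RNA precursor, took 20.7 to 24.9% of them in WT and 8.48 to 10.8% in AMPK KO, so the depth outside it was 7194439 to 8064254 and 9623848 to 10025288 reads. Prkaa1, the floxed gene, stood at log2 values of 4.64, 5.24 and 4.86 in WT and 4.08, 4.72 and 4.67 in AMPK KO, a difference of -0.43 ± 0.25 (SE, adjusted p = 0.357, limma). QuantSeq reads the 3′ end, and the position of the deleted exons is not given in the sources used here, so this value does not check the labels. Xist, transcribed from the inactive X chromosome of female cells, was read 8 to 32 times in WT but 1998 to 2876 times in AMPK KO. Ddx3y, a gene of the Y chromosome, gave 3159 to 3462 reads in the WT samples against 1296 to 1840 in AMPK KO. The Y-linked reads go against an all-female origin of either group, as do the few Xist reads of WT, and sex and genotype cannot be told apart here. Whether each sample came from a separate mouse is not in the labels, and p values measure the spread between these samples.

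**Figure D1:**
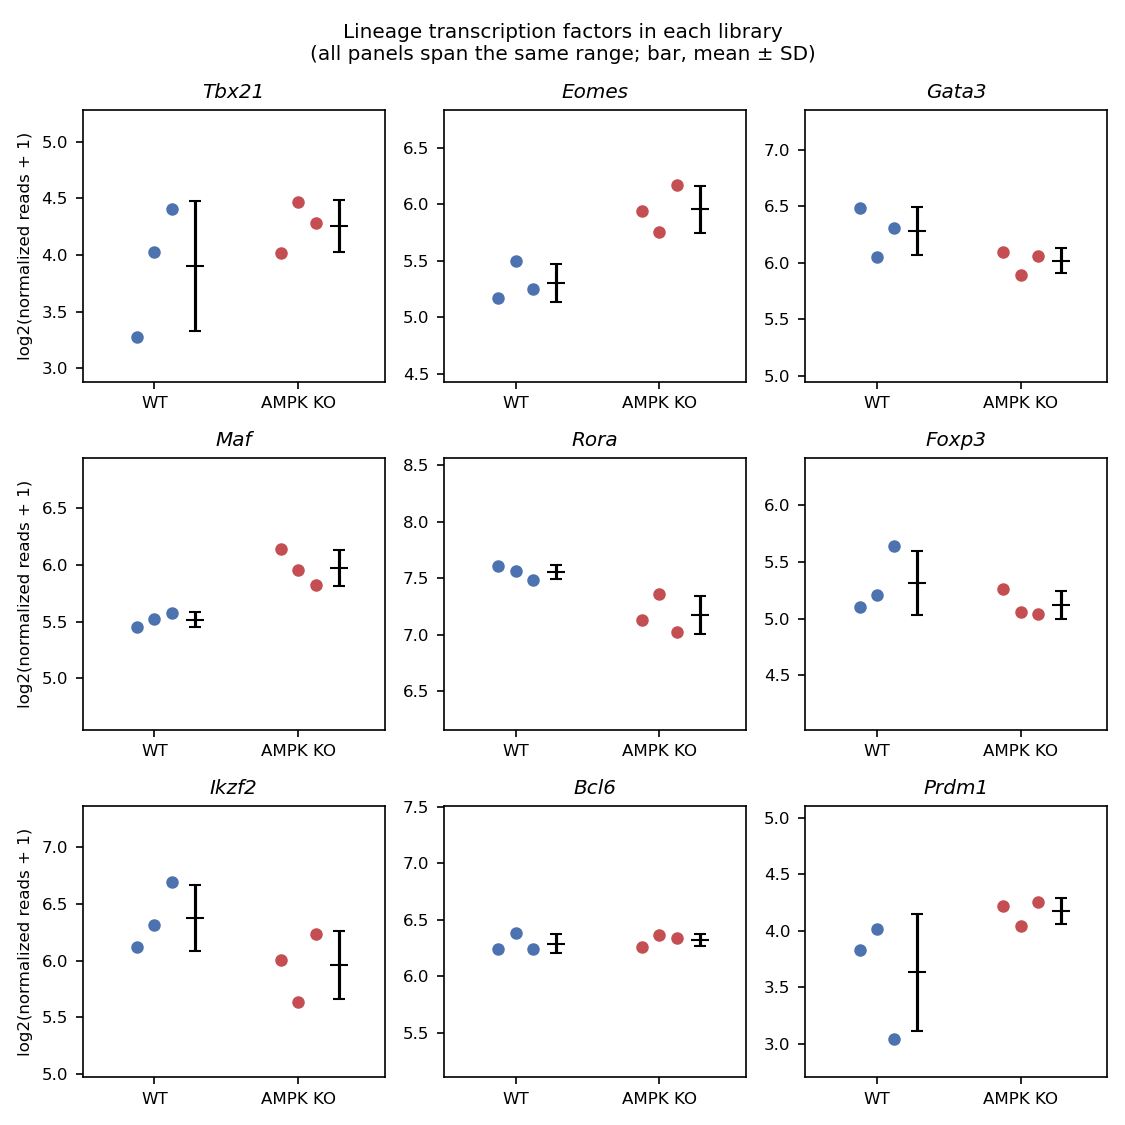
Each panel plots 1 transcription factor as log2(normalized reads + 1) on the y axis, with a point for each of the 3 WT (blue) and 3 AMPK KO (red) libraries and a bar for the mean ± SD, and all panels span the same range of log2 units. The groups separate for Eomes, Maf and Rora, separate by 0.02 for Prdm1, and overlap for the other factors.

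Eomes and Tbx21 encode the T-box factors of T cells. EOMES shares DNA binding with T-bet and drives cytotoxic programs in CD8 T cells, NK cells and a subset of CD4 T cells. Eomes was at log2 values of 5.17, 5.50 and 5.25 in WT samples 1, 2 and 3, and at 5.94, 5.76 and 6.17 in AMPK KO samples 1, 2 and 3. Every AMPK KO sample was above every WT sample, on 323 to 441 reads in the WT samples against 570 to 843 in AMPK KO. The difference was 0.65 ± 0.19 (SE, 95% interval 0.25 to 1.05), or 1.57-fold, with an adjusted p of 0.0569 (limma) and an exact permutation p of 0.1, the smallest that 3 against 3 samples allow. It was the largest difference of the 9 and the nearest to the threshold. Without WT sample 2 it passed (0.74, adjusted p = 0.0468), as it did without AMPK KO sample 2 (0.75, adjusted p = 0.0180) and with the libraries scaled to T cell markers (0.88, adjusted p = 0.0300), whereas over all 16 alternatives the adjusted p ran from 0.0180 to 0.214.

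Tbx21 stood at 3.28, 4.03 and 4.41 in WT and at 4.02, 4.47 and 4.29 in AMPK KO, on 80 to 227 reads. WT sample 1 was below all other samples, and the remaining WT values lay within the AMPK KO range. The difference of 0.35 ± 0.31 (SE, 95% interval -0.31 to 1.01) had an adjusted p of 0.549 (limma). It was 0.04 without WT sample 1 and 0.61 without WT sample 3.

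The promoters of the pair are shown because Eomes led the set and Tbx21, its closest relative here, was spread over the largest range within a group. Both were taken from RefSeq on GRCm38.p6, from 250 bases before to 50 bases after the transcription start, Eomes from chr9:118477939-118478238 on the plus strand and Tbx21 from chr11:97115282-97115581 on the minus strand. Capitals mark matches on either strand to the NFAT core GGAAA, the AP-1 motif TGANTCA or the TATA motif TATAA, the first 2 of which are bound by factors that T cell receptor signals activate.
Eomes: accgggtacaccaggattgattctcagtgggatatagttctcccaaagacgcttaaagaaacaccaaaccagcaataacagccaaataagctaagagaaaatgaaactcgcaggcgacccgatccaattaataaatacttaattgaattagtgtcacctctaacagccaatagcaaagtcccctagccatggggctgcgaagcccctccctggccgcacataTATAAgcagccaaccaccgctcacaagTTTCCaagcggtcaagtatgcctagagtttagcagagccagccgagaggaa
Tbx21: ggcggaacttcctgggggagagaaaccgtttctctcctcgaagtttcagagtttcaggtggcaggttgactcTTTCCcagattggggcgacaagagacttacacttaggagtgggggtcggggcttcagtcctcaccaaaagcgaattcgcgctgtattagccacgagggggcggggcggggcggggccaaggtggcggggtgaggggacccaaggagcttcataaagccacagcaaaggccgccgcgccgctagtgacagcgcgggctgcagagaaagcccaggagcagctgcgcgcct
The Eomes window held a TATA match that begins at base -28 and an NFAT match at -1, counted back from the base before the start, whereas that of Tbx21 held a single NFAT match at -178. Of 32851 promoters of this length, 61.3% held the NFAT core and 24.9% the TATA motif, so the matches are common. No T-box motif (AGGTGT), RUNX motif (TGTGGT) or TCF/LEF motif (CTTTGA) stood in either window on either strand. These letters were found in 13.7%, 16.8% and 16.0% of promoters, respectively. No match overlapped another in these windows.

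Gata3 and Maf act in Th2 cells, where GATA3 opens the interleukin 4 locus and c-MAF, the product of Maf, activates Il4 itself. c-MAF also supports interleukin 10 and interleukin 21 in other helper cells. Gata3 was at 6.48, 6.05 and 6.31 in WT and at 6.10, 5.89 and 6.06 in AMPK KO. The lowest WT sample lay inside the AMPK KO range, and the difference of -0.26 ± 0.17 (SE, 95% interval -0.63 to 0.10) did not pass (adjusted p = 0.404, limma). Maf was at 5.45, 5.52 and 5.58 in WT and at 6.14, 5.96 and 5.82 in AMPK KO, on 393 to 450 and 656 to 824 reads. All 3 AMPK KO values were above all 3 WT values, which lay close together. The difference was 0.46 ± 0.17 (SE, 95% interval 0.08 to 0.83), or 1.37-fold, with an adjusted p of 0.144 (limma), which ran from 0.0484 to 0.442 over the alternatives. It passed with scaling to T cell markers only (0.69, adjusted p = 0.0484), which moved the median of all genes to 0.23.

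Rora encodes RORα, a nuclear receptor that supports the Th17 program and also acts in Treg cells and group 2 innate lymphoid cells (ILC2). Rora was at 7.61, 7.56 and 7.49 in WT and at 7.13, 7.36 and 7.03 in AMPK KO. All AMPK KO samples lay below all WT samples, AMPK KO sample 2 being the nearest to them. The difference was -0.38 ± 0.14 (SE, 95% interval -0.69 to -0.07), or 0.768-fold, with an adjusted p of 0.142 (limma). It passed without AMPK KO sample 2 (-0.47, adjusted p = 0.0289), and the adjusted p over the alternatives ran from 0.0289 to 0.554. Its promoter is shown as that of the only factor whose AMPK KO values all lay below WT, from chr9:68653536-68653835 on the plus strand, with the same marks.
Rora: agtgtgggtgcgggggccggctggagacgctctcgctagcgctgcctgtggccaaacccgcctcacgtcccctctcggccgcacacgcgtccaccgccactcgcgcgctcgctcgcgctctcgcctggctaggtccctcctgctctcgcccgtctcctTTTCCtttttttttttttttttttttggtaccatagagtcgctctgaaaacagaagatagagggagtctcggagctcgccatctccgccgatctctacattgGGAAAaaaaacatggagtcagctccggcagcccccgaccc
It held 2 NFAT matches and none of the other 5 motifs searched. Eomes and Rora lie on the same chromosome, at 118478186 to 118486132 and 68653404 to 69388246 on the plus strand.

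Foxp3 and Ikzf2 mark Treg cells. FOXP3 is required for their development, and Helios, the product of Ikzf2, stabilizes their program. Foxp3 was at 5.11, 5.21 and 5.64 in WT and at 5.26, 5.06 and 5.04 in AMPK KO. The groups overlapped, and WT sample 3 was the highest of the 6. The difference of -0.20 ± 0.21 (SE, 95% interval -0.64 to 0.25) had an adjusted p of 0.631 (limma) and was -0.04 without WT sample 3. Foxp3 lies on the X chromosome (7579676 to 7595243, plus strand, GRCm38.p6), so its value is compared between groups that differ in Xist. It also overlaps Ppp1r3f, at 1.38 to 2.74 over the 6 samples, and Ccdc22, at 4.69 to 5.27, both on the opposite strand. Flicr, on the same strand, and Gm36995, on the opposite strand, overlap it too and are not among the genes listed. Gata3, Rora, Ikzf2, Bcl6, Eomes and Maf are also overlapped by annotated genes. Whether reads were counted by strand is not given in the sources used here, so the share of such reads in the Foxp3 value is unknown.

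Ikzf2 was at 6.12, 6.31 and 6.69 in WT and at 6.00, 5.63 and 6.23 in AMPK KO. AMPK KO sample 3 lay above WT sample 1, and the others of AMPK KO lay below WT. The difference was -0.42 ± 0.20 (SE, 95% interval -0.84 to 0.01; adjusted p = 0.244, limma), and it was -0.26 with either WT sample 3 or AMPK KO sample 2 left out. WT sample 3 was the highest WT sample for Ikzf2 as for Foxp3, which the comparison within libraries below takes up.

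Bcl6 and Prdm1 encode repressors that exclude each other. BCL6 directs Tfh cells and germinal center B cells, and Blimp-1 acts in effector and Treg cells and in plasma cells. Bcl6 was at 6.24, 6.38 and 6.24 in WT and at 6.26, 6.37 and 6.34 in AMPK KO. The groups coincided, with a difference of 0.03 ± 0.15 (SE, adjusted p = 0.931, limma) and a 95% interval of -0.30 to 0.36. Prdm1 was at 3.83, 4.02 and 3.04 in WT and at 4.22, 4.04 and 4.25 in AMPK KO, on 64 to 152 and 166 to 215 reads. All AMPK KO samples were higher, although AMPK KO sample 2 was above WT sample 2 by only 0.02 on the log2 scale. The difference of 0.54 ± 0.30 (SE, 95% interval -0.11 to 1.19) had an adjusted p of 0.325 (limma), and the value was 0.25 without WT sample 3. Its promoter, shown because Prdm1 is the other higher factor with an entry, lies at chr10:44458699-44458998 on the minus strand, a start inside the gene (44437174 to 44528558).
Prdm1: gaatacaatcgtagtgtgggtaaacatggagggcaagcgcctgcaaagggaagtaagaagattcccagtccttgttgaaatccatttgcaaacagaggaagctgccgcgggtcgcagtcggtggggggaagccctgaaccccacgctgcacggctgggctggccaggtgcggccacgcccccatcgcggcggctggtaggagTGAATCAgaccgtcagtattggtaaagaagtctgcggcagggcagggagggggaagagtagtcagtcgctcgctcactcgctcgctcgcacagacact
It held an AP-1 match at -48 and none of the other 5 motifs. The AP-1 motif was present in 7.81% of promoters and in none of the other windows of the set. Promoter entries were matched for 7 of the 9 factors, the others being Maf and Ikzf2.

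**Figure D2:**
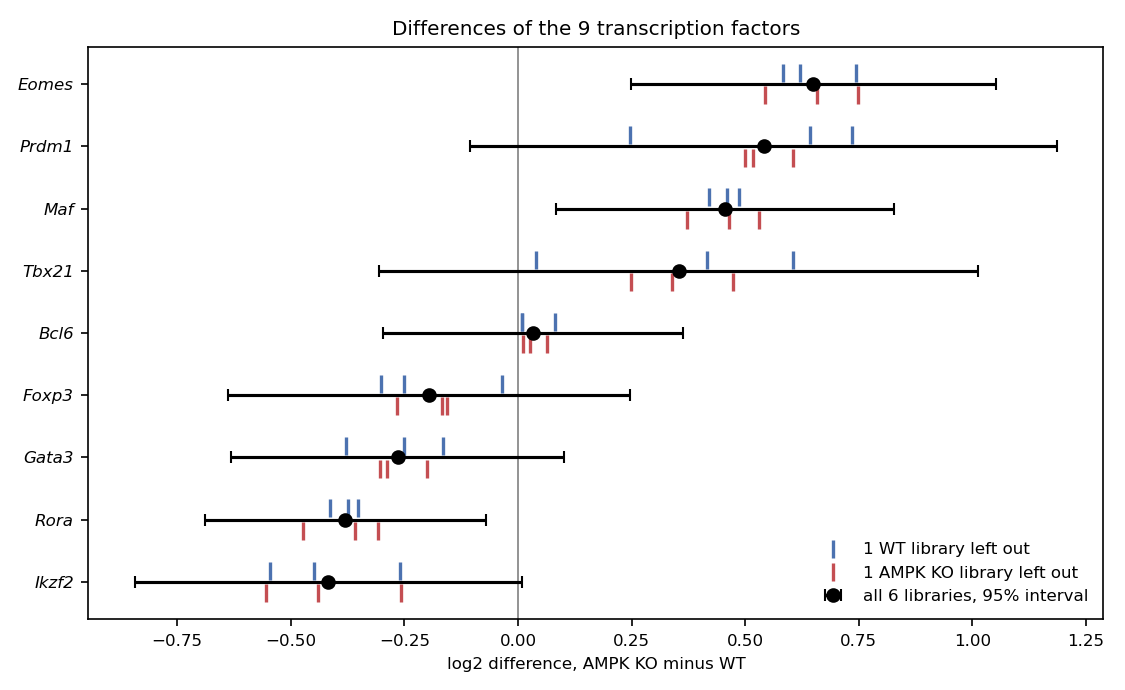
Black points give the log2 difference of AMPK KO minus WT for each factor over all 6 libraries, with its 95% interval (limma), and blue and red ticks give the same difference with 1 WT or 1 AMPK KO library left out. The intervals of Eomes, Maf and Rora lie to one side of 0, and those of the other factors cross it, and leaving out WT sample 1 moves Tbx21 to 0.04 and leaving out WT sample 3 moves Prdm1 to 0.25.

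The balance of opposing or cooperating factors was compared within each library, as the difference of 2 log2 values, which removes the scaling of the library. This was done for 5 pairs, with an exact two-sided permutation test and p values adjusted over the 5. The smallest exact permutation p that 3 against 3 libraries allow is 0.1. Gata3 minus Maf was 1.03, 0.53 and 0.73 in WT and -0.04, -0.07 and 0.24 in AMPK KO, so every AMPK KO library was lower, by 0.72 in the mean (p = 0.1, adjusted p = 0.25, exact permutation). Bcl6 minus Prdm1 was 2.41, 2.37 and 3.20 in WT and 2.04, 2.33 and 2.09 in AMPK KO. It was lower in every AMPK KO library, with a difference of -0.51 (p = 0.1, adjusted p = 0.25, exact permutation) that was -0.24 without WT sample 3.

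The remaining pairs overlapped. Tbx21 minus Gata3 averaged -2.38 ± 0.72 in WT and -1.76 ± 0.33 in AMPK KO (SD, n = 3; exact permutation p = 0.3, adjusted p = 0.5), a difference of 0.62 that was 0.20 without WT sample 1. Foxp3 minus Ikzf2 was close to constant in WT, at -1.02, -1.11 and -1.05, and more spread in AMPK KO, at -0.75, -0.57 and -1.19 (difference 0.22, exact permutation p = 0.4, adjusted p = 0.5). The high Foxp3 of WT sample 3 thus came with high Ikzf2 in the same library. Tbx21 minus Eomes differed by -0.30 (exact permutation p = 0.6, adjusted p = 0.6) and by -0.02 without WT sample 3.

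**Figure D3:**
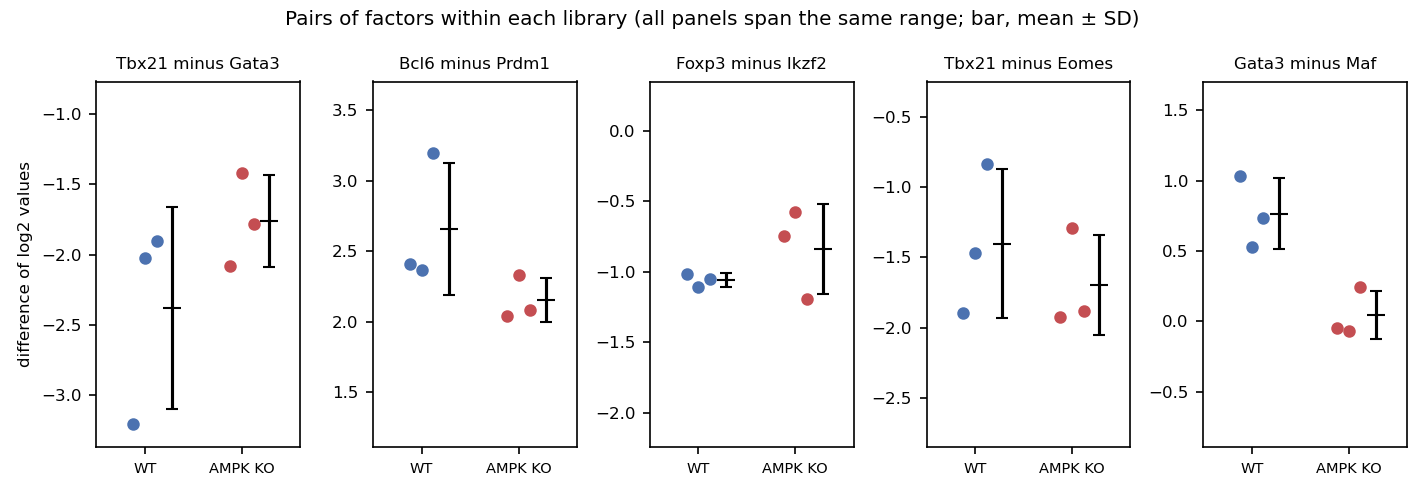
Each panel plots, on the y axis, the difference between the log2 values of 2 factors within each library, for 3 WT (blue) and 3 AMPK KO (red) libraries, with the mean ± SD as a bar, and all panels span the same range. Gata3 minus Maf and Bcl6 minus Prdm1 do not overlap between the groups, and the other 3 pairs do.

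Genes that act with or under each factor were compared in the same fit. Of 14 Th1 genes, 3 rose and 0 fell, with a median difference of 0.50. Ifng, the Th1 cytokine gene bound by T-bet and EOMES, was at 2.12, 4.10 and 3.45 in WT and at 4.91, 5.17 and 4.71 in AMPK KO and rose by 1.70 ± 0.40 (SE, adjusted p = 0.0231). Every AMPK KO value of Ifng was above every WT value, while Tbx21 overlapped in the same libraries. Ccl5, a chemokine of effector T cells, rose by 1.73 ± 0.16 (adjusted p = 2.02e-05) and Stat4, the transducer of interleukin 12 signals, by 0.99 ± 0.19 (adjusted p = 0.00707). With a sample left out, the Th1 count was 1 (WT sample 1 or AMPK KO sample 1) or 2 (WT sample 3). Ccl5 passed under all 16 alternatives, and Ifng did not pass without any one of those 3 samples or without the filter on low values, where the Th1 count was 2.

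Of the 13 Th2 genes, 8 passed the filter on low values and 0 were called (limma; 3 at an unadjusted p of 0.05, voom 0), with a median of -0.18. Il4, the defining cytokine of Th2 cells, was listed at 0 in all 6 libraries. The tested Th2 genes with the highest means were Il4ra, an interleukin 4 receptor chain (difference -0.29 ± 0.15, adjusted p = 0.306), and Stat5b, a transducer of interleukin 2 signals (-0.07 ± 0.15, adjusted p = 0.83). The larger differences of the list were those of Il1rl1, the interleukin 33 receptor gene (1.31 ± 0.45, adjusted p = 0.108, groups overlapping), and of Gfi1, a repressor that GATA3-expressing cells use for growth (-1.18 ± 0.35, adjusted p = 0.0639). Gfi1 was at 5.21, 5.64 and 4.66 in WT and at 4.31, 3.10 and 4.57 in AMPK KO, all of them below WT. Stat6, which carries interleukin 4 signals, was also lower in every AMPK KO sample (-0.44 ± 0.15, adjusted p = 0.105). The Th2 count was 1, lower, with AMPK KO sample 3 left out. Of the 13 Th17 genes, 8 were tested and 0 called (limma; 1 at an unadjusted p of 0.05, voom 0), with a median of 0.08. Stat3, which carries interleukin 6 signals, differed by 0.20 ± 0.15 (adjusted p = 0.468), and Irf4, a factor induced through the T cell receptor, by -0.35 ± 0.18 (adjusted p = 0.294). The gene at that unadjusted p was Il17a, the defining cytokine of Th17 cells, at 0.00, 0.49 and 1.01 in WT and at 1.71, 1.52 and 1.98 in AMPK KO, on 0 to 9 and 20 to 35 reads. Its WT mean of 0.50 lay under the filter on low values, which it passed only through its AMPK KO values, so the values are given as a description and nothing is read from its test.

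Of 19 tested Treg genes, 2 rose and 1 fell, with a median of 0.24. Il2rb, a chain of the interleukin 2 receptor, rose by 0.67 ± 0.14 (adjusted p = 0.0126) and Tnfrsf9, a costimulatory receptor, by 0.72 ± 0.17 (adjusted p = 0.0245), both of which are also expressed by other activated T cells. Gpr83, a receptor enriched in Treg cells, fell by 1.38 on the log2 scale (SE 0.37, adjusted p = 0.0394). Leaving out WT sample 1, WT sample 3 or AMPK KO sample 1 brought the Treg count to 0, and leaving out AMPK KO sample 2 brought it to 4. Tnfrsf9 was also lost without the filter. Gpr83 was also lost when either sample numbered 2 was left out, with voom, without the filter and with scaling to T cell markers. Of 15 tested Tfh genes, 2 rose and 0 fell, with a median of -0.07. Pdcd1, which encodes PD-1, rose by 1.69 ± 0.31 (adjusted p = 0.00669) and Cxcr5, the chemokine receptor that brings Tfh cells to follicles, by 0.84 ± 0.21 (adjusted p = 0.0314), whereas Bcl6 was level. The Tfh count was 1 with any WT sample left out and 0 with AMPK KO sample 1 left out, and with AMPK KO sample 3 left out 1 gene rose and 2 fell. Besides these, 1 Tfh gene also fell with AMPK KO sample 2 left out, a pseudocount of 5, robust spread or scaling to reads outside Rn45s. Of the samples left out in turn, Pdcd1 was lost with AMPK KO sample 1 alone and Cxcr5 with every sample except AMPK KO sample 2. Cxcr5 was also lost without the filter.

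Of 24 partners and antagonists of the 9 factors, 0 rose and 4 fell, with a median of -0.29. Tcf7, whose product TCF-1 maintains naive and memory T cells and favors Bcl6, was at 5.37, 5.28 and 5.27 in WT and at 3.79, 3.54 and 3.60 in AMPK KO. The groups of Tcf7 were far apart, with a difference of -1.66 ± 0.23 (SE, adjusted p = 0.000719). Lef1, its relative in the same role, was between 8.88 and 9.12 in WT and at 7.98, 7.70 and 8.23 in AMPK KO, a difference of -1.03 ± 0.15 (SE, adjusted p = 0.0016). Both fell under all 16 alternatives. Bach2, which restrains Prdm1 and effector genes, fell by 0.80 on the log2 scale (adjusted p = 0.046), and Ikzf1, which encodes Ikaros, by 0.58 (adjusted p = 0.0205). Neither passed when WT sample 1, WT sample 3 or AMPK KO sample 1 was left out. With scaling to T cell markers neither passed, and 2 partners rose and 2 fell. Bach2 also did not pass with quantile normalization, without the filter, with voom or with a pseudocount of 0.25.

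Relatives within the families of the 9 factors gave 1 call, again Ikzf1, among 16 tested of 27, with a median of -0.30. Foxp1, a relative of Foxp3 that maintains naive T cells, differed by 0.05 ± 0.15 (adjusted p = 0.896). For comparison, the median over all genes tested was 0.02, and the share of genes called lower was 3.10%.

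**Figure D4:**
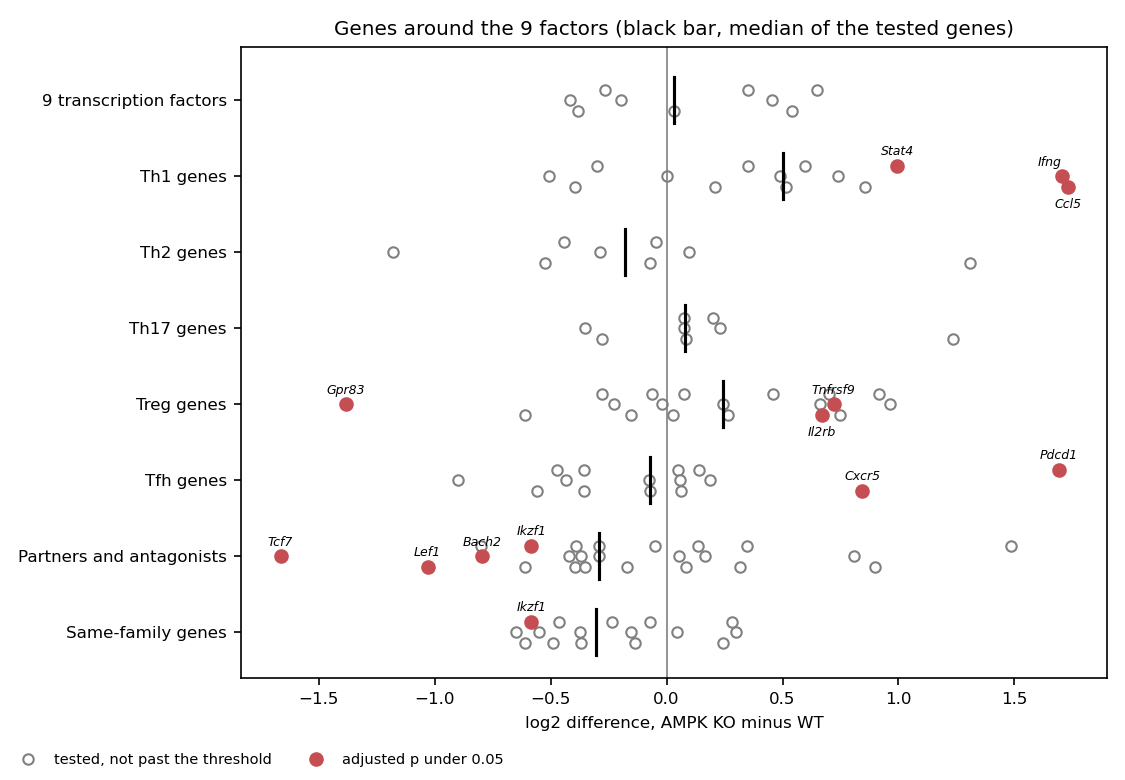
Each point is the log2 difference (x axis, AMPK KO minus WT) of a tested gene in the list named at left. Red points passed an adjusted p of 0.05 (limma) and carry their names, open points did not, and the black bar is the median of the list. Red points lie to the right of 0 for Th1 and Tfh genes, on both sides for Treg genes and to the left for partners and same-family genes, and none is seen among the 9 factors, the Th2 genes or the Th17 genes.

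Several of the 9 factors are also made by cells other than CD4 T cells, and the marker lists of those cells were read in the same libraries. Per the methods, CD4 T cells were isolated with magnetic beads or a cell sorter, a step meant to remove the other cells. In bulk RNA, fewer cells of a type and less RNA per cell cannot be told apart. The summed level of the T cell list was 3576 to 3761 normalized CPM in WT and 2909 to 3465 in AMPK KO, with Cd3g (-0.93), Cd3e (-0.66) and Cd28 (-0.56) lower and Thy1 (0.50) higher by the test, 4 of 14. Cd2 (-0.39) and Cd3d (-0.31), the T cell genes with the highest means, did not pass. Cd3g did not pass without WT sample 1, Cd3e and Cd28 without WT sample 1, WT sample 3, AMPK KO sample 1 or AMPK KO sample 3, and Thy1 without any one WT sample or AMPK KO sample 1. Cd28 and Thy1 also did not pass with voom, a pseudocount of 0.25 or no filter, nor did Cd3e without the filter, Cd3e and Cd28 with scaling to T cell markers, or Thy1 with scaling to reads outside Rn45s. The count was 2 with voom, both lower, and 1 without the filter. Cd4 itself was at 6.72, 6.83 and 6.53 in WT and at 6.55, 6.31 and 6.14 in AMPK KO, a difference of -0.36 ± 0.17 (SE, adjusted p = 0.224) with 1 AMPK KO sample inside the WT range. Cd4 and T cell transcripts were thus read in both groups, which does not measure the purity of the cells.

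Eomes is expressed by CD8 T cells and NK cells. The CD8 list summed to 305 to 390 CPM in WT and 410 to 502 in AMPK KO, with 0 of 6 tested genes called (limma; 4 at an unadjusted p of 0.05, voom 0). Scaling to T cell markers, under which Eomes passed, brought this count to 1, with Cd8b1 higher (adjusted p = 0.04999, limma). Cd8a had 813 to 1034 and 1320 to 1598 reads, a difference of 0.34 ± 0.15 (adjusted p = 0.217), Cd8b1 differed by 0.38 ± 0.16 (adjusted p = 0.197), and Gzmk was listed at 0 throughout. CD8 transcripts were therefore present in every library, and their summed level was higher in every AMPK KO library, alongside Eomes. The NK list summed to 102 to 132 and 202 to 273 CPM, with Fcer1g (1.12) and Tyrobp (1.02) called, both of which myeloid cells express too. Neither passed without WT sample 1 or AMPK KO sample 1, nor Fcer1g without WT sample 3, and neither passed without the filter. Its defining gene Ncr1 had 0 to 19 reads in the WT samples against 0 to 7 in AMPK KO. The part of these cells in the Eomes difference, and in the differences of the Th1 genes above, was not tested.

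Maf is expressed by macrophages and Prdm1 by plasma cells. The macrophage list summed to 747 to 850 CPM in WT and 1254 to 2409 in AMPK KO, and 10 of 17 tested genes rose, with C1qa (1.85) and C1qc (1.51) the farthest. Both passed under all 16 alternatives. The count of rises was 5 with WT sample 1 left out and 6 with WT sample 3 or AMPK KO sample 1 left out. The summed level of the list was highest in AMPK KO sample 2, and Maf was highest in AMPK KO sample 1. The plasma cell list summed to 249 to 305 and 581 to 607 CPM, with Jchain (2.60) the only one of 10 tested genes called. Jchain passed under all 16 alternatives, 5 of which called a second gene. The part of either cell type in the Maf and Prdm1 differences was not tested.

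Rora, Gata3 and Ikzf2 are shared with innate lymphoid cells, and Bcl6 with B cells. The ILC2 list was low, at 10.9 to 26.3 and 40.1 to 45.8 CPM, and only Areg (1.84) was called of 5 tested, though not without AMPK KO sample 1. It was higher in AMPK KO, while Rora, Gata3 and Ikzf2 had lower means there. The B cell list summed to 786 to 950 and 1018 to 1873 CPM, where only Cd74 (0.88), which all antigen-presenting cells express, was called of 11 tested (not without any one WT sample or AMPK KO sample 1, with robust spread or without the filter). The dendritic cell list summed to 193 to 229 CPM in WT and 151 to 183 in AMPK KO. It had 1 call of 10, Ccr9 (-1.97), although 7 of the 10 had a higher mean in AMPK KO and the median was 0.43. The neutrophil list had 2 calls of 8, Ngp (-1.53) and Ltf (-1.54; not without any one WT sample, AMPK KO sample 1 or the filter, nor with scaling to T cell markers), and the erythroid list had 0 of 7 (limma; 0 at an unadjusted p of 0.05, voom 0). The part of these cells in the values of the 9 factors was not tested.

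**Figure D5:**
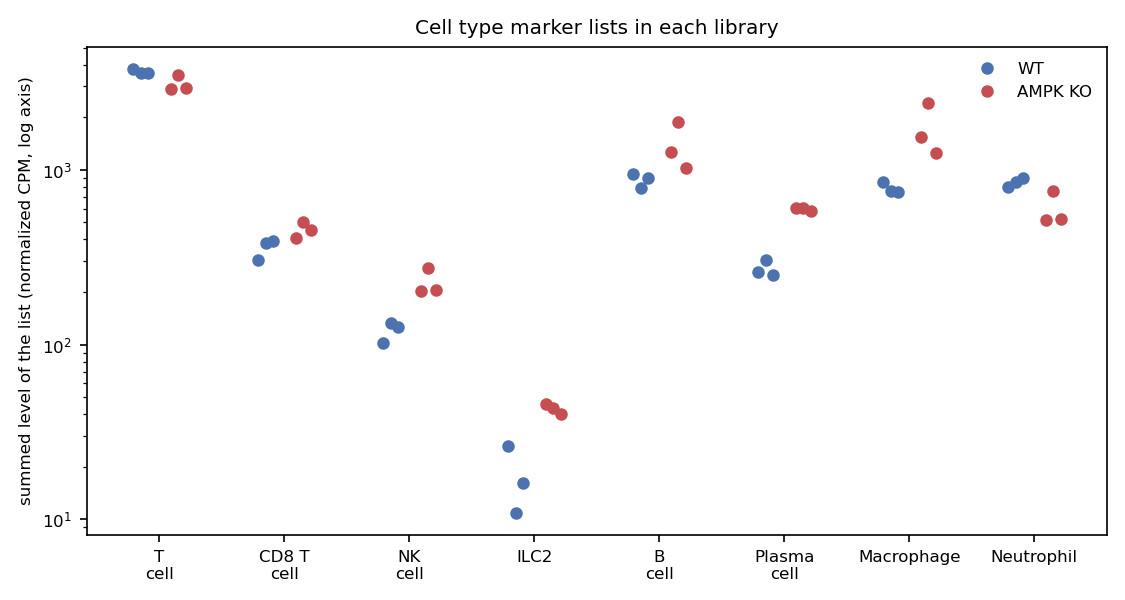
Points give the summed level of each marker list (y axis, normalized CPM, log scale) in each of the 3 WT (blue) and 3 AMPK KO (red) libraries. The macrophage list is at 747 to 850 CPM in WT and 1254 to 2409 in AMPK KO, the plasma cell list at 249 to 305 and 581 to 607, and the T cell list at 3576 to 3761 and 2909 to 3465.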

How the data were processed

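RNA-seq libraries of WT and AMPK KO CD4 T cells were analysed, 3 per group, and the labels gave the groups. The authors deposited log2 values, log2(TMM- and CPM-normalized reads + 1), for genes listed by symbol. The submitters' processing notes name Bowtie2, bedtools and mm10, without versions or roles, and the strand setting of the counting is not given in the sources used here. Each library lists 23282 genes, and 35 symbols stand on 79 lines. Values worth up to 100 reads all (100%) fell no more than 0.1 from whole reads, from which read counts and depths of 9575307 to 11185507 per sample were recovered.

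The 11279 genes whose 6 values averaged 1 or more were tested on the deposited values with lmFit and eBayes (trend) of limma 3.58.1 in R 4.3.3, with genotype as the only term, two-sided, and Benjamini-Hochberg adjustment over all genes tested at 0.05. A difference is that of the mean log2 values, AMPK KO minus WT, which understates the fold of low genes. Single values and pairs were tested by exact permutation (smallest p 0.1). The scripts were tested on simulated data. Summed marker levels add the normalized CPM of a list's genes. Reads are counts without correction for amplification, and values between genes are not compared, since 3′ capture differs by gene.

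The 9 members and the gene lists were chosen with earlier results of these data known. Named genes were the members, the called genes of each list (at most the 6 with the largest difference), the 2 genes with the highest mean where fewer than 2 were called, and for each cell type list the 2 with the highest mean. Cd4, Gzmk, Ncr1, Il4, Il2, Gfi1, Stat6, Il1rl1 and Il17a fall outside that rule and were picked once their values were known. The 16 alternatives were quantile normalization, scaling to reads outside Rn45s or to T cell markers, no filter, a mean of at least 3, pseudocounts of 0.25 and 5, a replicate block, robust spread, voom on recovered reads, and leaving out each sample. Promoters and positions came from RefSeq on GRCm38.p6, and overlapping genes from the GENCODE annotation of that build. Tables were handled in Python 3.11.15 (pandas 2.3.3, numpy 2.4.6) and plotted with matplotlib 3.10.9. T cell receptor constant genes were not analysed here. Some items are not reported here.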

Additional observations from a re-analysis of the deposited data

How the results depend on the processing

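Of 144 differences of the 9 factors under the 16 alternatives, 137 kept their direction and side of the threshold, 5 passed it, and 2 changed direction, neither of them past the threshold under any setting. Foxp3 was 0.035 with scaling to T cell markers. Bcl6 was -0.035 with scaling to reads outside Rn45s, which moved the median of all genes to -0.05. The count of factors called was 2 with scaling to T cell markers and 0 to 2 with a sample left out, and 0 under the other settings. Scaling to T cell markers moved the median of all genes to 0.23, and the differences of 0.88 for Eomes and 0.69 for Maf under it are to be read against that shift. Gata3 (-0.03), Rora (-0.14), Foxp3 and Ikzf2 (-0.18) lie below it. The cause of these shifts was not tested.

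Over all genes, 637 were called (287 higher, 350 lower). The count was 308 without the filter, where 15930 genes were tested, 102 with a replicate block, and 127 to 1243 with a sample left out, lowest without WT sample 1 (127), WT sample 3 (133) and AMPK KO sample 1 (173) and highest without AMPK KO sample 2 (1243). Voom gave 538. Scaling to reads outside Rn45s gave 235 higher and 487 lower, and scaling to T cell markers 588 higher and 95 lower. The sample titles number the replicates without saying whether same-numbered samples were paired. Deviations from the group means correlated at -0.22, -0.53 and -0.31 between same-numbered samples over 6143 genes. Between the other samples of WT and AMPK KO they correlated at -0.26 to 0.46. The deviations within a group depend on each other, so these values cannot show whether the numbers pair the samples. With the replicate block, the count of factors called stayed 0 (Eomes 0.65, adjusted p = 0.196), and the list counts were 1 of Th1, 0 of Treg, 1 of Tfh, 2 of partner genes and 0 of T cell and B cell markers, with Ifng, Gpr83, Bach2, Ikzf1 and Cd74 among the calls lost.

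With 3 samples per group, the 95% intervals of the factors span 0.62 to 1.32 log2 units, widest for Prdm1 and Tbx21, which had the fewest reads. Sex, genotype and the levels of other cell types move together between the groups and cannot be told apart.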

Other observations

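Early activation genes, which T cell receptor signals induce within hours, moved in both directions. Of 17 tested, 4 rose and 2 fell, with a median of 0.24. Cd44, an adhesion receptor that marks activated and memory cells, was at 6.05, 6.66 and 5.90 in WT and 7.42, 7.15 and 7.55 in AMPK KO and rose by 1.17 ± 0.20 (SE, adjusted p = 0.00364, limma). Tnfrsf9 (0.72), Tfrc (0.71), which encodes the transferrin receptor, and Fosb (0.70), an AP-1 subunit, also rose. Egr3, a factor induced by calcium and Ras signals, was at 8.43, 7.98 and 8.39 in WT and 7.07, 7.17 and 6.55 in AMPK KO, a difference of -1.34 ± 0.18 (SE, adjusted p = 0.000719, limma), and its relative Egr1 differed by -0.76 (adjusted p = 0.00592). Only Egr3 of these passed under all 16 alternatives. Leaving out WT sample 1 gave 2 calls, leaving out WT sample 3 or AMPK KO sample 1 gave 3, and leaving out AMPK KO sample 2 gave 11. Il2, the growth factor gene of stimulated CD4 T cells, had 3 to 8 reads in each group, so it was near 0 in libraries labelled as stimulated with anti-CD3 and anti-CD28.

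The genes whose values followed each factor most closely over the 6 samples were looked up among 6143 genes with a mean log2 of at least 4. For Eomes they were Srsf3, Cox7c and Ptp4a1 (Pearson r 0.994 each), for Rora Fam32a (0.998), Stard4 (0.996) and Taf7 (0.993), for Maf Btf3l4 (0.982), Tnf (0.975) and Pdhb (0.974), and for Prdm1 Rsbn1 (0.995), Sh2b3 (0.989) and Srr (0.989). The first gene for the other factors was Rabep2 for Tbx21 (0.985), Gm3414 for Gata3 (0.990), Polr3gl for Foxp3 (0.983), Snhg17 for Ikzf2 (0.986) and Zfp68 for Bcl6 (0.987). These values describe 6 points that share group, library and depth, and with this many genes searched a high r was found for every factor.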
